A study of Mus musculus with 10 samples.

Results

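Mouse plantaris muscle overloaded for 3 d under a PDGF inhibitor was compared with plantaris that was not overloaded, with 2 pooled RNA samples in each group. The comparison asks how much of the early transcript response to overload is present while platelet-derived growth factor (PDGF) signalling is inhibited. All 22180 genes that had a probe set with exactly 1 symbol were compared, each through its brightest probe set, and these 4 pools are part of a series of 10. All mice were male C57BL/6, and the labels do not give their age. Each pool held equal amounts of RNA from 4 muscles and was run on 1 Affymetrix Mouse Gene 2.1 ST array. In the inhibitor group, overload was produced by synergist ablation, the removal of muscles that share the work of the plantaris, and a PDGF inhibitor was used, whose name, dose and route the labels do not give. The no-overload group had neither the surgery nor the inhibitor. Surgery, overload and inhibitor therefore differ together between these groups, and their parts cannot be told apart by this comparison alone. The series also holds 2 pools of 3 d overload without inhibitor, which serve here to show where the inhibitor group differed, and 10 d pools with and without inhibitor, which enter only the estimate of the spread. Nothing in the labels says that the pools of a group came from separate animals, so the p-values below reflect the spread between these pools, part of it possibly technical.

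PDGF ligands are dimers that bind the receptor tyrosine kinases Pdgfra and Pdgfrb. Pdgfra marks fibroblasts and fibro-adipogenic progenitors of muscle, and Pdgfrb marks pericytes and other mural cells. Receptor activation feeds the Ras-ERK and phosphoinositide 3-kinase cascades, which drive division, migration and matrix synthesis in mesenchymal cells. In a muscle forced to carry extra load, satellite cells divide and fuse to fibres, fibres restart genes of development, macrophages enter, and fibroblasts and tendon cells lay down collagen.

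The muscle changed widely. Most listed genes of regenerating fibres, macrophages, mitosis and collagens rose, while most of oxidative phosphorylation, the tricarboxylic acid cycle and glycolysis fell. In all, 3154 of 22180 genes (14.2%) passed an adjusted p under 0.05 in limma, 1711 higher (7.71%) and 1443 lower (6.51%). An unadjusted p under 0.05 was reached by 5850 genes (26.4%), and the pools of the groups did not overlap for 11799 genes (53.2%). The median log2 change over all genes was -0.0044.

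The number of calls depended on single pools. Without inhibitor pool 1, 1343 genes passed, and without inhibitor pool 2, 1932. Without no-overload pool 1, 1618 passed, and without no-overload pool 2, 1786. The split between directions depended on the array scaling. An alternative chosen after seeing the data shifted each array to a common median over all 22180 genes tested. There 1315 genes were called higher and 1991 lower, and the median change over all genes moved to -0.13. Where a list's count moved by over 1.5 times when 1 of the 10 arrays was left out, brackets below name the arrays that moved it. The brackets give the lowest or highest count or state that calls were lost. A pool named there without a time is a 3 d pool with inhibitor or a pool without overload. Partner pools correlated at r = 0.989 to 0.992 over genes. On the first principal component of all 10 arrays (43.1% of the variance), the no-overload pools lay at 51.3 and 48.5, the inhibitor pools at -32.6 and -27.1, and the pools of 3 d overload without inhibitor at -45.7 and -37.0.

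**Figure D1:**
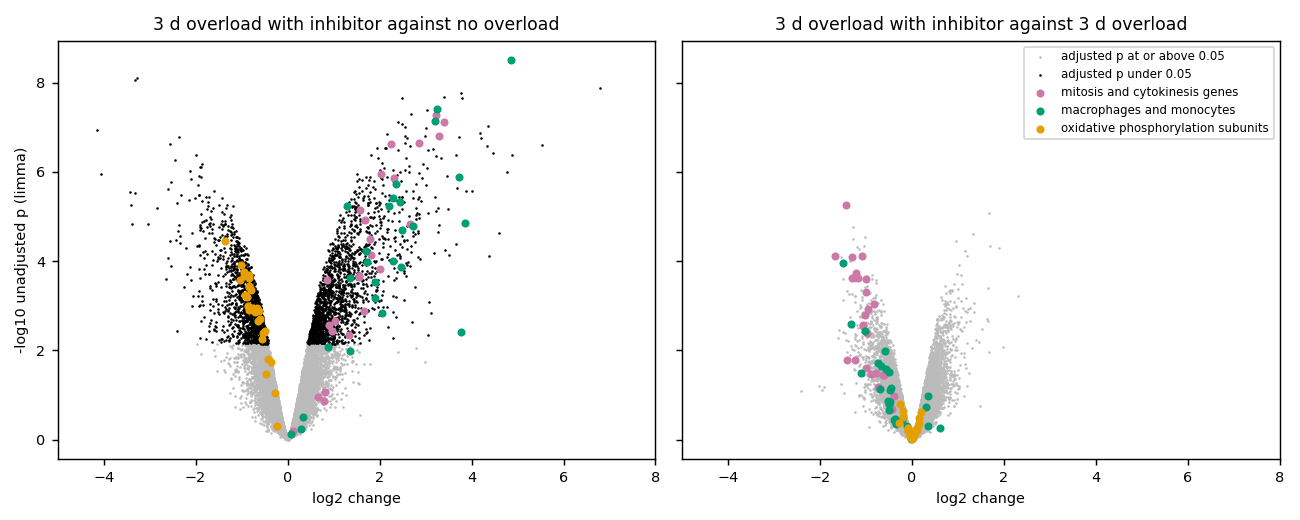
Log2 change (x axis) against -log10 of the unadjusted limma p (y axis) for 22180 genes, with the inhibitor group set against no overload on the left and against 3 d overload without inhibitor on the right. Black points are the 3154 genes with an adjusted p under 0.05, all in the left panel, and coloured points are mitosis, macrophage and oxidative phosphorylation genes.

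The same muscles were also set against 3 d overload without inhibitor. In that direct comparison no gene passed in limma (0.00%), the smallest adjusted p was 0.0907, and 2011 genes (9.07%) had an unadjusted p under 0.05, 993 of them lower and 1018 higher with inhibitor. Other settings called 15 genes with an intensity trend in the moderation, 4 without dim genes, 7 without pool 2 of 3 d overload and 0 elsewhere. For 3 d overload without inhibitor against no overload, 3881 genes passed (17.5%), 2066 higher (9.31%) and 1815 lower (8.18%), and the pools did not overlap for 55.8%. This comparison uses the same no-overload pools, so its values are given side by side and not counted as independent. Values of the direct comparison below are descriptions unless a test is named.

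The largest rises belonged to stress proteins, calcium handling, macrophages and matrix. Sprr1a, first known as a squamous cell envelope protein and induced by injury in nerve and muscle, stood at 7.57 and 7.55 log2 units in the inhibitor pools and 0.73 and 0.79 without overload. It rose 111-fold (log2 6.80 ± 0.33 SE, adjusted p = 6.01e-05), and the pools of 3 d overload without inhibitor stood at 7.53 and 7.91. Its no-overload values lie near the lower end of the array's range, where RMA compresses changes. Sarcolipin (Sln), an inhibitor of the sarcoplasmic calcium pump, stood at 8.78 and 8.46 against 2.43 and 3.75. It rose 46.4-fold (log2 5.54 ± 0.38, adjusted p = 0.000163), and stood at 7.57 and 7.82 without inhibitor. Both inhibitor pools were thus above both overload pools for Sln, with a direct log2 difference of 0.93 that did not pass.

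Cd68, a lysosomal glycoprotein of macrophages, stood at 9.99 and 9.96 against 4.97 and 5.28 and rose 28.9-fold (log2 4.85 ± 0.20, adjusted p = 6.01e-05). Timp1, an inhibitor of matrix metalloproteases, rose by 4.78 ± 0.39 (adjusted p = 0.000339), from 2.02 and 3.12 to 7.21 and 7.50. Tnc, the glycoprotein tenascin C of loaded tendon and wounds, rose by 4.47 ± 0.32 (adjusted p = 0.000194), from 4.48 and 4.59 to 8.90 and 9.11. All of these were far outside the spread of the no-overload pools. The 3 d overload pools without inhibitor held Tnc at 9.88 and 9.71, above both inhibitor pools, and Cd68 at 9.60 and 9.64, below both.

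Ankrd1, a titin-binding ankyrin repeat protein of strained sarcomeres, reached 12.33 and 12.36 from 7.54 and 8.43 (log2 4.36 ± 0.27, adjusted p = 0.00012). Mymk, the membrane protein required for myoblast fusion, rose by 4.2009 ± 0.28 (adjusted p = 0.000133), from 3.48 and 3.49 to 7.96 and 7.41. Atf3, a stress-induced transcription factor, rose by 4.17 ± 0.27 (adjusted p = 0.000133), from 5.52 and 5.83 to 9.94 and 9.76. The chemokine Ccl2, which recruits monocytes, rose by 4.38 ± 0.62 (adjusted p = 0.00286). Periostin (Postn), a matricellular protein of fibroblasts, rose from 5.98 and 6.82 to 10.36 and 10.45 (adjusted p = 0.000549). Serpina3n, an acute-phase protease inhibitor, rose by 4.34 ± 0.30 (adjusted p = 0.000163) and Cgref1, an EF-hand protein, by 4.59 ± 0.56 (adjusted p = 0.0015). These 12 genes passed whichever of the 10 arrays was left out, and all 12 also passed in 3 d overload without inhibitor.

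The largest falls were of muscle-specific, channel and enzyme genes. Klhl33, a kelch-repeat protein, stood at 3.88 and 3.77 against 7.96 and 7.99 and fell 17.7-fold (log2 -4.15 ± 0.26, adjusted p = 0.00013). Smox, which oxidizes spermine, fell from 8.44 and 8.28 to at most 5.18 (log2 -3.27 ± 0.15, adjusted p = 6.01e-05). Gdap1, a mitochondrial outer membrane protein, stood at 4.03 and 4.16 against 7.55 and 7.28 (log2 -3.32 ± 0.15, adjusted p = 6.01e-05). In each case the groups were separated by far more than the gap between partner pools. Ky, a protease-like protein of the sarcomere, fell by 3.32 ± 0.31 (adjusted p = 0.000563). Lrrc52, an accessory subunit of a potassium channel, fell by 3.39 ± 0.39 (adjusted p = 0.0012). Gbp10, a guanylate-binding protein, fell by 3.42 ± 0.32 (adjusted p = 0.000562).

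Other large falls were those of the clock repressor Ciart (-2.84 ± 0.29, adjusted p = 0.000764), the extraocular myosin Myh13 (-2.65 ± 0.44, adjusted p = 0.0058), the water channel Aqp4 of fast fibres (-2.60 ± 0.24, adjusted p = 0.000522), and the glycerol phosphate dehydrogenase Gpd1 (-2.55 ± 0.17, adjusted p = 0.000161). Among the 12 largest falls with inhibitor, the inhibitor and overload groups were farthest apart for Odf3l2. It stood at 6.14 and 5.45 with inhibitor, 8.55 and 8.24 without overload, and 3.59 and 4.74 in 3 d overload without inhibitor (log2 -2.60 ± 0.37 and -4.23 against no overload, direct difference 1.63, adjusted p = 0.278). Cacna2d4, a calcium channel subunit, went the other way, at 1.79 and 1.77 with inhibitor, 4.08 and 4.62 without overload, and 3.31 and 2.25 with overload alone (log2 -2.57 ± 0.33 and -1.57). Neither direct difference passed. The methyltransferase Inmt, among the largest falls of overload alone, fell in both comparisons, at 3.46 and 3.16 with inhibitor, 4.99 and 5.17 without overload, and 2.02 and 2.21 with overload alone (-1.77 ± 0.17, adjusted p = 0.000619; direct difference 1.19).

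**Figure D2:**
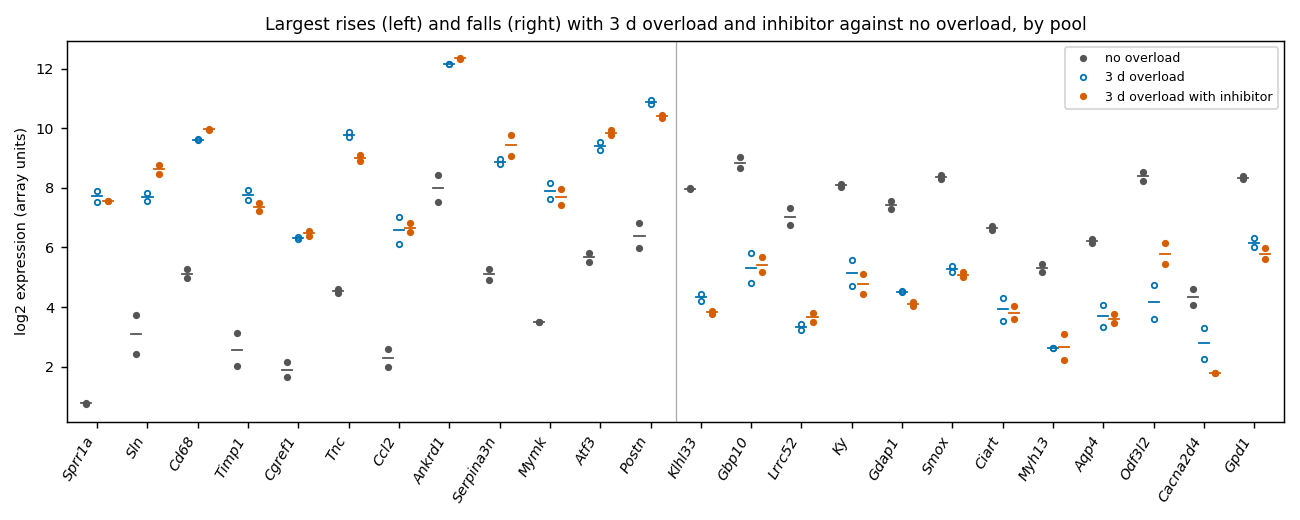
Log2 expression (y axis, array units) of the 12 largest rises and 12 largest falls in each pool of no overload, 3 d overload and 3 d overload with inhibitor; points are pools and bars their means. For Sprr1a the inhibitor pools sit at 7.57 and 7.55 and the no-overload pools at 0.73 and 0.79; for Odf3l2 the inhibitor pools lie between the other groups.

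Promoters of some genes of the responses described here are printed as examples of the letters that known factors bind. Each holds the motif shown, and promoters of other genes, with or without a motif, are not printed. The printed promoters are RefSeq sequences of GRCm38.p6, the 250 bases before the gene's start, read 5′ to 3′ on the gene's strand. Sprr1a lies on the minus strand at chr3:92485882-92486131 and Plaur, the urokinase receptor described with the proteases below, on the plus strand at chr7:24462233-24462482. Capitals mark TGANTCA on either strand, the motif of AP-1 dimers of Fos and Jun proteins.
Sprr1a: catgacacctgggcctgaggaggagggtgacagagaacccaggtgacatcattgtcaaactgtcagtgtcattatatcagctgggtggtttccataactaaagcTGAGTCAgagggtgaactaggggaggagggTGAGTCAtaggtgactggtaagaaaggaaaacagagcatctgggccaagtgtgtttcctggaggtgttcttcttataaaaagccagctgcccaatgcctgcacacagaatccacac
Plaur: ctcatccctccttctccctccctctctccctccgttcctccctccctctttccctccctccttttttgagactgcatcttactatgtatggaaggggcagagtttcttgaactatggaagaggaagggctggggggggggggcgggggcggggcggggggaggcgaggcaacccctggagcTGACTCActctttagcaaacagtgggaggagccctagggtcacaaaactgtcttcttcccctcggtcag
The Sprr1a window holds 2 such matches and that of Plaur 1. Of all 32841 promoter windows of this length, 6.8% hold at least 1. A match describes letters and shows no binding. List shares below count genes, all members matched to a promoter, whether or not the member changed. A gene counts if any of its windows holds the motif. The share of all windows counts each of the 32841 windows of 27018 genes by itself. The list shares can therefore be raised by genes with several windows, and the comparison is a description only. Matches were sought on both strands and counted for each motif by itself, so that a CArG box can also hold CCAAT.

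None of the 6 PDGF ligands and receptors passed in limma, and 2 had an unadjusted p under 0.05. Without either 10 d overload pool 1 passed, but none did in any other setting in which lists were counted. Over all genes 14.2% passed and 26.4% had an unadjusted p under 0.05, and counts over 6 genes cannot be set apart from these shares. Pdgfra stood at 7.64 and 7.66 with inhibitor against 7.37 and 7.24 (log2 0.34 ± 0.16, adjusted p = 0.231), and Pdgfrb at 7.61 and 7.58 against 7.20 and 7.37 (0.31 ± 0.16, adjusted p = 0.265). Among ligands, Pdgfb stood at 7.01 and 7.29 against 6.63 and 6.44 (0.61 ± 0.22, adjusted p = 0.103). Pdgfc stood at 5.94 and 5.59 against 4.66 and 5.20 (0.83 ± 0.32, adjusted p = 0.137). Without inhibitor Pdgfc stood at 6.39 and 6.32, and there it passed (1.42). The direct difference of -0.59 did not pass (adjusted p = 0.637). Pdgfa (-0.32 ± 0.15, adjusted p = 0.225) and Pdgfd (0.03 ± 0.17) did not pass either. Both inhibitor pools were above both no-overload pools for both receptors, Pdgfb and Pdgfc, where 53.2% of all genes have pools that do not overlap. The array measures transcripts only, so receptor activity was not measured.

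Immediate early transcription factors, which growth factors and strain switch on within minutes, were high in the inhibited muscle. Of 24 measured, 15 rose and none fell, with a median log2 change of 1.16, and 8 rose without inhibitor pool 1. Fos, a partner in AP-1, stood at 8.27 and 8.17 against 5.44 and 5.77 (2.61 ± 0.39, adjusted p = 0.00344). In 3 d overload without inhibitor Fos stood at 7.49 and 6.34, below both inhibitor pools. Myc, which drives ribosome and nucleotide synthesis, rose by 2.18 ± 0.36, the zinc finger factors Egr1 and Egr2 by 2.32 ± 0.25 and 2.17 ± 0.31, and Junb by 1.71 ± 0.26. Nr4a1 was the member with the lowest value (-0.64, adjusted p = 0.108). Compared directly with 3 d overload, 23 of the 24 had higher values with inhibitor and 13 had both inhibitor pools above both overload pools, against 22.3% of all genes. The median direct difference was 0.45 against 0.03 over all genes, and 0.71 without pool 1 of 3 d overload and 0.23 without its pool 2. Of the 24, 6 members had an unadjusted p under 0.05, and none passed (smallest adjusted p = 0.374).

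Some of the genes that the ERK cascade induces and that restrain it rose. Of 16 measured, 6 rose, none fell and 10 had values above 0 (median 0.50, and 0.26 without no-overload pool 1 and 0.29 without inhibitor pool 2; 3 rose without inhibitor pool 2 or no-overload pool 1, and 1 fell without the former). Dusp5, a nuclear phosphatase of ERK, stood at 5.43 and 5.34 against 3.16 and 2.34 and rose by 2.63 ± 0.29 (adjusted p = 0.000947). Phlda1 rose by 1.29 ± 0.17 and Spred1, an inhibitor of Ras signalling, by 1.0037 ± 0.15. Against 3 d overload, Phlda1 differed by 0.57 and Spred1 by -0.46, and 4 members were higher and 1 lower at an unadjusted p under 0.05.

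Only some growth factor genes changed. Of the HGF and FGF list 17.6% were called, of IGF genes 26.7% and of TGF-beta and myostatin genes 37.5%, against 14.2% of all genes. Hbegf, a ligand of the EGF receptor, stood at 8.32 and 8.41 against 5.04 and 4.88 (3.41 ± 0.17, adjusted p = 6.01e-05), one of 3 rises among 17 HGF and FGF related genes, of which none fell (1 without either 10 d overload pool). Fgf18 rose by 1.27 ± 0.17. Igfbp5, which binds insulin-like growth factors, fell by 1.32 ± 0.16, from 10.01 and 10.14 to 8.75 and 8.76. It was the one fall among 15 IGF genes, of which 3 rose (0 or 1 without any 1 of the 4 pools compared, and 5 without either 10 d overload pool), while Igf1 itself did not pass (0.83, adjusted p = 0.0646; 1.25 and passed in 3 d overload). Of 24 TGF-beta and myostatin genes, 6 rose and 3 fell (3 rose without inhibitor pool 1, and none fell without that pool or no-overload pool 1), with Tgfb1 higher by 1.45 ± 0.17. Myostatin (Mstn), which limits muscle mass, fell by 1.06 ± 0.20 (adjusted p = 0.0101), a call lost without inhibitor pool 1 or no-overload pool 1.

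In the interleukin-6 and Stat3 list of 16 genes, 7 rose and 2 fell (median 0.47; 1 fell without any 1 of the 4 pools compared). Socs3, the feedback inhibitor of Stat3, rose by 2.60 ± 0.30, Stat3 by 1.15 ± 0.12, the oncostatin M receptor Osmr by 1.48 ± 0.17, and Il6 by 1.19 ± 0.16 from dim levels of 1.95 and 1.73. The receptor Lifr fell by 1.24 ± 0.16. The direct differences from 3 d overload were 0.00 for Socs3, 0.09 for Stat3 and -0.03 for Osmr. In the lists that follow, 21.1% of angiogenic factors and 12.5% of BMP and Id genes were called, against 14.2% of all genes. Of 19 angiogenic factors, 3 rose and 1 fell (1 rose without inhibitor pool 1 or no-overload pool 2), with Angptl4, an inhibitor of lipoprotein lipase, at 2.32 ± 0.36 and Vegfb at -0.85 ± 0.14. Of 16 BMP and Id genes, 2 rose (0 without inhibitor pool 1 or no-overload pool 2, 1 without inhibitor pool 2 or either pool of 3 d overload alone) and none fell (1 without inhibitor pool 2 or either 10 d overload pool).

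Cell division genes rose in the inhibited muscle, and their levels lay below those of 3 d overload alone. Of 25 mitosis and cytokinesis genes, 21 rose and none fell, with a median log2 change of 1.67, and 16 rose without inhibitor pool 1. In 3 d overload without inhibitor 24 rose, with a median of 2.61. Mki67, a nuclear protein of dividing cells, stood at 5.97 and 5.89 with inhibitor, 2.58 and 2.68 without overload, and 7.30 and 7.14 with overload alone. It rose by 3.30 ± 0.22 (adjusted p = 0.000133), and the direct difference from overload alone was -1.29 (adjusted p = 0.174). Ccnb2, a cyclin that drives entry into mitosis, stood at 5.91 and 5.86, 2.47 and 2.52, and 7.04 and 6.66 in the same order and rose by 3.39 ± 0.20 (adjusted p = 0.000116). The 3 groups did not overlap for either gene, with the inhibitor pools between the others.

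Top2a, which untangles replicated chromosomes, stood at 5.33 and 5.49 with inhibitor against 2.41 and 2.71 (2.85 ± 0.19), and at 6.66 and 6.49 with overload alone. Prc1, which bundles microtubules at the division plane, rose by 3.23 ± 0.19, the kinase Plk1 by 2.66 ± 0.30, the mitotic motor Kif11 by 2.31 ± 0.20 and cyclin A2 (Ccna2) by 2.26 ± 0.15. Cdk1, the kinase that cyclins A and B activate, had the widest gap of the list from overload alone. It stood at 3.21 and 2.95 with inhibitor, 2.06 and 2.05 without overload, and 4.95 and 4.55 with overload alone (1.02 ± 0.24, adjusted p = 0.023, but up to 0.137 without any 1 of the 4 pools compared; direct difference -1.67, adjusted p = 0.100). Aspm, a spindle pole protein, had the smallest direct p of all genes, at 2.73 and 2.83 with inhibitor and 4.15 and 4.27 with overload alone (-1.43, adjusted p = 0.0907). The members that did not pass against no overload were Bub1 (0.82), Kif2c (0.79), Ttk (0.66) and Aurka (0.12).

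All 25 mitosis genes had lower values with inhibitor than with overload alone, and for all 25 both inhibitor pools lay below both overload pools. Over all genes 45.6% were lower, 17.7% had both pools below, and 40.0% had pools that did not overlap in either direction. The median direct difference was -1.01, and -1.12 to -0.94 when single arrays were left out. Of the 25, 22 had an unadjusted p under 0.05, and none passed after adjustment over all genes. In bulk muscle RNA, fewer cells of a type and less RNA per cell cannot be told apart, here and in the results that follow. Some genes of DNA replication rose too. Of 24 measured, 9 rose and none fell (median 0.58), against 15 in overload alone (0.85), with a median direct difference of -0.33 and 22 lower. The helicase subunits Mcm6 and Mcm5 rose by 2.11 ± 0.15 and 2.04 ± 0.19, and Rrm2, a subunit of ribonucleotide reductase, by 2.19 ± 0.31.

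**Figure D3:**
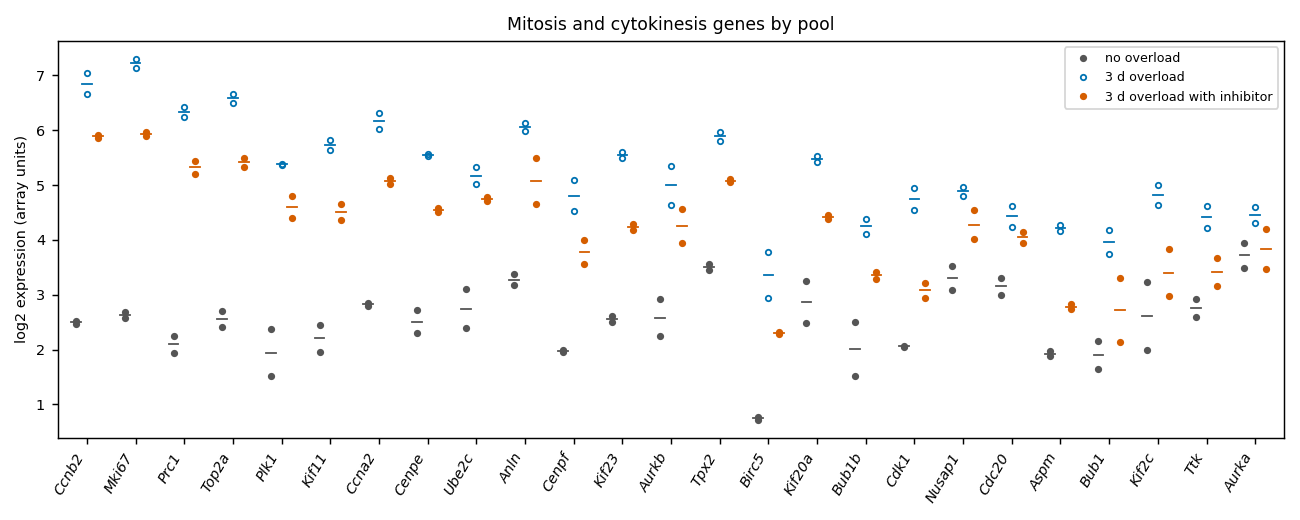
Log2 expression (y axis, array units) of 25 mitosis and cytokinesis genes in each pool, with the bars at the means of 2 pools. For all 25 both 3 d overload pools with inhibitor lie below both 3 d overload pools without it, and 21 rose against no overload.

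The promoters of Ccnb2 (chr9:70421555-70421804, minus strand), Top2a (chr11:99024190-99024439, minus strand) and Mki67 (chr7:135716380-135716629, minus strand) are shown because these genes carry the values given above. Capitals mark the CCAAT box, written as CCAAT or on the other strand as ATTGG, which NF-Y binds.
Ccnb2: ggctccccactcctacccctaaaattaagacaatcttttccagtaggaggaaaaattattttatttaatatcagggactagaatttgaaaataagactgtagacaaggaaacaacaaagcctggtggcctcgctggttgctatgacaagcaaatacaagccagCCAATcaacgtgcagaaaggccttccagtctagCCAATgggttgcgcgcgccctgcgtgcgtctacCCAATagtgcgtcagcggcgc
Top2a: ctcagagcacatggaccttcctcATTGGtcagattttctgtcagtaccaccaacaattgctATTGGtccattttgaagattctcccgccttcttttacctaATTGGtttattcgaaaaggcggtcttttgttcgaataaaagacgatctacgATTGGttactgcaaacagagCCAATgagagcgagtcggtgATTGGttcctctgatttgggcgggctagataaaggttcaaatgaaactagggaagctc
Mki67: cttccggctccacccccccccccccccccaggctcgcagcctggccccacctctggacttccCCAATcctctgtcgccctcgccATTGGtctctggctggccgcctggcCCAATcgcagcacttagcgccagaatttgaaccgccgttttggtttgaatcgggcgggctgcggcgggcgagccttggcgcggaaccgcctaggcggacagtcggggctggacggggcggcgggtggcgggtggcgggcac
There are 3 matches for Ccnb2, 6 for Top2a and 3 for Mki67. Of the 21 genes matched for this list, 17 held CCAAT (81.0%), against 33.9% of all windows. TTTGAA, the core of the cell cycle homology region, was held by 9 (42.9% against 16.0%). Of 20 for DNA replication genes, 13 held CCAAT (65.0%) and 2 held TTTGAA (10.0%).

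Genes of embryonic and regenerating fibres rose. Of 16 measured, 14 rose and none fell (median 2.0026; 9 rose without inhibitor pool 1 or no-overload pool 1), and 14 rose in overload alone (median 2.29). Embryonic myosin (Myh3) stood at 6.96 and 6.84 against 4.49 and 4.55 (2.38 ± 0.34, adjusted p = 0.00284), and at 6.94 and 7.40 with overload alone. The light chain Myl6b rose by 3.01 ± 0.19, the fetal acetylcholine receptor subunit Chrng by 2.60 ± 0.39, and Xirp1, an actin-binding protein of damaged and growing fibres, by 2.48 ± 0.24. Cardiac actin (Actc1), expressed in developing muscle, stood at 8.03 and 8.20 against 6.07 and 6.46 (1.85 ± 0.35, adjusted p = 0.0104). The call of Actc1 was lost without either inhibitor pool or without no-overload pool 1 (adjusted p up to 0.0666). The median direct difference over the list was -0.04, between -0.20 and 0.05 when single arrays were left out, with 9 members lower and 7 higher than in overload alone.

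Fusion and myoblast genes rose in part. Of 18 measured, 9 rose and 1 fell (median 0.80; 0 fell without either inhibitor pool or no-overload pool 1), and the median direct difference was -0.09, between -0.15 and 0.04 when single arrays were left out. Of 9 satellite cell markers, which overlap this list, 3 rose and 2 fell (1 rose without either inhibitor pool or no-overload pool 1, and 0 or 1 fell without any array but those of 10 d overload with inhibitor). Myog, which drives terminal differentiation, stood at 6.93 and 6.74 against 3.62 and 4.02 (3.02 ± 0.27, adjusted p = 0.000446), and at 7.02 and 7.25 with overload alone. Myod1, which commits myoblasts, rose by 1.32 ± 0.22, the adhesion molecule Ncam1 by 1.82 ± 0.20 and the laminin receptor subunit Itga7 by 2.02 ± 0.16. The lowest log2 change against no overload was -1.40 in the myoblast list and also in the satellite cell list. The direct differences of Myog (-0.30), Mymk (-0.21), Myod1 (0.26) and Ncam1 (0.03) did not pass. For Myog the inhibitor pools lay below both pools of overload alone.

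Sensors of load and sarcomere stress rose as well. Of 19 measured, 11 rose and none fell (median 0.83), with a median direct difference of 0.08. Besides Ankrd1 and Xirp1 they included the small heat shock protein Hspb1 (2.55 ± 0.17), the actin regulator Enah (2.14 ± 0.15), Csrp3, a LIM protein of the Z-disc (1.82 ± 0.13), Flnc, a filamin of the Z-disc (1.54 ± 0.16), and Ankrd2 (1.53 ± 0.19). Csrp3 stood at 11.72 and 11.77 with inhibitor and 11.68 and 11.65 with overload alone.

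The promoters of Actc1 (chr2:114052876-114053125, minus strand) and Myog (chr1:134289754-134290003, plus strand) are shown as examples of developing muscle. In Actc1 capitals mark the CArG box, which serum response factor binds, and in Myog the E-box CANCTG, which Myod1 and Myog bind with their partners.
Actc1: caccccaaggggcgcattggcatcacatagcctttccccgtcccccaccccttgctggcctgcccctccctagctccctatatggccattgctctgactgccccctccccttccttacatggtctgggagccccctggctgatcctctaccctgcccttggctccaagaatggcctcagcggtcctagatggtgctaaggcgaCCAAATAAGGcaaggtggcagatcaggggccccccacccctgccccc
Myog: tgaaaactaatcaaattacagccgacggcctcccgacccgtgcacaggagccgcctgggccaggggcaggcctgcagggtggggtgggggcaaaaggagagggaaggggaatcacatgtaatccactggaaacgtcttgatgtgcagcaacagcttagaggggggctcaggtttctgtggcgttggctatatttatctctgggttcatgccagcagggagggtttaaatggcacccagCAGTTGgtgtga
Each window holds 1 match. Of 12 genes matched for the embryonic fibre list, 7 held the E-box (58.3%), 1 the CArG box (8.3%) and 2 the AP-1 motif (16.7%). Of all windows, 44.8%, 1.5% and 6.8% did. Of 9 for myoblast genes, 5 held the E-box (55.6%). Of 16 for load sensors, 11 held the E-box (68.8%), 2 the CArG box (12.5%) and 3 the AP-1 motif (18.8%).

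Fewer of the adult fibre genes passed. The tissue label was borne out by markers of skeletal muscle fibres, whose mean level was 11.62 and 11.66 with inhibitor and 11.81 in both no-overload pools, and 1 of 10 passed, lower (0 without any 1 of the 4 pools compared). Of 17 fast fibre genes, 6 fell and none rose (median -0.29). Parvalbumin (Pvalb), the calcium buffer of the fastest fibres, stood at 9.97 and 10.19 against 11.40 and 11.38 (-1.31 ± 0.13, adjusted p = 0.000716), and at 10.65 and 10.54 with overload alone. Myoz3, a Z-disc protein of fast fibres, fell by 1.12 ± 0.16 and Mylk2, the skeletal myosin light chain kinase, by 0.90 ± 0.16. The fast myosin Myh4 stood at 11.84 in both inhibitor pools against 12.07 and 12.01 and did not pass (-0.20). Of 12 slow fibre genes, 2 rose and 1 fell (1 rose without any array but those of 10 d overload with inhibitor, and 0 fell without inhibitor pool 1 or no-overload pool 1 and 2 without no-overload pool 2), with the calcium store protein Casq2 up by 1.75 ± 0.18 and the slow myosin Myh7 at -1.32 without passing (adjusted p = 0.0699).

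Excitation and junction genes moved in both directions. Of 17 excitation and calcium release genes, 6 fell and 2 rose (median -0.35; 0 rose without no-overload pool 2 and 1 without any 1 of the other 3 pools compared), including the chloride channel Clcn1 (-1.36 ± 0.17) and the potassium channel Kcnj2 (-1.33 ± 0.16), which set the resting potential, and Hrc (-1.11 ± 0.17), a calcium-binding protein of the sarcoplasmic reticulum. Of 13 neuromuscular junction genes, 5 rose and 3 fell (3 rose without inhibitor pool 2 or no-overload pool 1). Acetylcholinesterase (Ache) stood at 3.26 and 3.89 against 5.50 and 5.33 (-1.84 ± 0.22), the adult receptor subunit Chrne at 4.73 and 4.80 against 6.29 and 6.66 (-1.71 ± 0.16), and the agrin receptor Lrp4 fell by 1.24 ± 0.17. The fetal subunit Chrng rose, as above, and Runx1, a transcription factor induced by denervation, rose by 3.27 ± 0.40, from 4.52 and 5.49 to 8.43 and 8.12. Its direct difference from overload alone was -0.01.

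Collagens rose in the inhibited muscle and lay below their levels in overload alone. Of 15 fibrillar and interstitial collagens, 9 rose and none fell (median 1.38; 5 rose without inhibitor pool 1), and 12 rose in overload alone (median 1.89). Col3a1, the collagen of early repair, stood at 9.14 and 9.16 with inhibitor, 6.78 and 6.82 without overload, and 9.87 and 9.77 with overload alone (2.35 ± 0.23, adjusted p = 0.000646; direct difference -0.67, adjusted p = 0.443). Col1a1, the main collagen of tendon and scar, stood at 9.43 and 9.32, 8.02 and 7.96, and 10.31 and 10.17 (1.38 ± 0.24, adjusted p = 0.00724; direct difference -0.86, adjusted p = 0.355). The call of Col1a1 was lost without inhibitor pool 1 (adjusted p = 0.0537). Both collagens were at intermediate levels, with no overlap between the 3 groups.

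Col8a1 rose by 3.27 ± 0.34, Col5a2 by 2.52 ± 0.32 and Col6a3 by 1.78 ± 0.27. Col12a1 (1.55, adjusted p = 0.0682), Col1a2 (0.90, adjusted p = 0.0559) and Col6a1 (0.72, adjusted p = 0.0799) did not pass, and Col11a1 was at -0.87. A dimmer probe set of Col1a2 was higher by 1.98 with inhibitor than without overload. For all 15 the value with inhibitor was below that of overload alone, with a median direct difference of -0.60, and for 14 both pools were below. Of the 15, 7 had an unadjusted p under 0.05, and none passed (smallest adjusted p = 0.355). Over all genes 45.6% were lower, 17.7% had both pools below and 9.07% an unadjusted p under 0.05. Of 15 basement membrane genes, 4 rose (median 0.18, and 0.27 without no-overload pool 2; 2 rose without inhibitor pool 1, and 1 fell without inhibitor pool 2), among them the collagen IV chain Col4a2 (1.07 ± 0.17) and the laminin chain Lamc1 (0.77 ± 0.13).

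Enzymes that mature collagen rose too. Of 15 collagen hydroxylases, chaperones and crosslinkers, 9 rose and none fell (median 0.72; 4 without inhibitor pool 1 or no-overload pool 1). Lysyl oxidase (Lox), which crosslinks collagen, stood at 9.43 and 9.21 against 5.33 and 5.54 (3.89 ± 0.36, adjusted p = 0.000549) and at 9.48 and 9.71 with overload alone. Plod2, a lysyl hydroxylase, rose by 2.45 ± 0.35 and Loxl3 by 2.04 ± 0.25. The median direct difference was -0.25 (-0.16 without pool 1 of 3 d overload), with 14 of 15 lower and 11 with both pools below. Over all genes the shares were 45.6% and 17.7%. Of 18 matricellular genes, 10 rose and 1 fell (median 1.08; 0 fell without any 1 of the 4 pools compared and 2 without either 10 d overload pool), with a median direct difference of -0.35. Among them Ccn1 (2.50 ± 0.26) and Ccn2 (1.70 ± 0.22), secreted proteins induced by strain, differed from overload alone by 0.63 and 0.05, while the tendon and muscle thrombospondin Thbs4 rose by 1.78 ± 0.20. Fibronectin (Fn1) stood at 9.71 and 9.65 with inhibitor, 8.34 and 8.51 without overload, and 10.60 and 10.54 with overload alone (1.25 ± 0.26, adjusted p = 0.015, but up to 0.0836 without any 1 of the 4 pools compared).

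Of 19 proteoglycan and hyaluronan genes, 9 rose and 1 fell (median 0.47, and 0.75 without no-overload pool 2; 0 fell without any 1 of the 4 pools compared and 2 without either pool of 3 d overload alone). The hyaluronan receptor Cd44 rose by 2.58 ± 0.19, the hyaluronan synthase Has2 by 2.20 ± 0.32, versican (Vcan) by 2.18 ± 0.23 and biglycan (Bgn) by 1.39 ± 0.19. Of 25 matrix proteases and inhibitors, 10 rose and 2 fell (median 1.14; 6 rose and 0 fell without inhibitor pool 1 or no-overload pool 2). The urokinase receptor Plaur, whose promoter is printed above, stood at 5.45 and 5.29 against 3.43 and 3.50 (1.91 ± 0.30, adjusted p = 0.00416). The membrane metalloproteases Adam12 and Adam8 rose by 3.67 ± 0.48 and 2.42 ± 0.26. Of 15 genes matched for this list, 5 held the AP-1 motif (33.3%), and of 11 for collagens, 1 did (9.1%) and 36.4% held CCAAT. The AP-1 motif was held by 1 of 19 immediate early genes (5.3%) and by 0 of 21 mitosis genes (0.0%), against 6.8% of all windows. Of 20 integrin and focal adhesion genes, 10 rose and 1 fell (median 0.75; 0 fell without any 1 of the 4 pools compared), with the fibronectin receptor subunit Itga5 up by 2.40 ± 0.14.

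Tendon genes split. Of 10 markers of tendon cells, 3 rose and 4 fell with inhibitor (fewer fell without any 1 of the 4 pools compared). In overload alone 3 rose and none fell. With inhibitor the largest rise was that of Egr1 (2.32), an immediate early factor described above, and Thbs4 rose too. Scleraxis (Scx), the transcription factor of tendon progenitors, stood at 7.12 and 6.78 against 5.01 and 4.87 (2.01 ± 0.20, adjusted p = 0.000685) and at 6.88 and 6.82 with overload alone. Chondroadherin (Chad), a matrix protein of cartilage and tendon, stood at 5.47 and 5.33 with inhibitor, 7.53 and 7.76 without overload, and 7.68 and 6.30 with overload alone (-2.25 ± 0.40, adjusted p = 0.00761, passing in all 10 omissions). Its inhibitor pools were below those of both other groups. Keratocan (Kera), a corneal and tendon proteoglycan, stood at 4.04 and 4.27, 5.91 and 5.81, and 5.96 and 5.54 (-1.70 ± 0.43, adjusted p = 0.0321, but up to 0.151 without any 1 of the 4 pools compared).

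Tenomodulin (Tnmd), a membrane glycoprotein of mature tendon, stood at 4.83 and 4.29, 5.89 and 6.00, and 6.12 and 5.77 (-1.38, adjusted p = 0.0457, but up to 0.204 without any 1 of these 6 pools). Mkx, a homeobox factor of tendon, stood at 2.78 and 2.35, 3.50 and 4.02, and 3.59 and 4.12 (-1.19, adjusted p = 0.0377, but up to 0.185 without any 1 of the 4 pools compared). For Kera, Tnmd and Mkx, overload alone differed from no overload by -0.10, 0.00 and 0.10, and the direct differences with inhibitor were -1.60, -1.39 and -1.29, none of which passed (smallest adjusted p in the list 0.293). When an array was left out, the median direct difference of -0.63 over the list ran from -0.95 without pool 2 of 3 d overload to -0.25 without pool 1. The mean level of the list was 5.73 and 5.61 with inhibitor, 5.74 and 5.89 without overload, and 6.53 and 6.12 with overload alone. Of 17 fibroblast markers, 5 rose and 1 fell (median 0.19; 3 rose without inhibitor pool 1, and 0 fell without either inhibitor pool or no-overload pool 2 and 2 without either pool of 3 d overload alone), with mean levels of 7.08 and 7.03, 6.64 and 6.74, and 7.45 and 7.31. Their part in the collagen values was not tested.

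**Figure D4:**
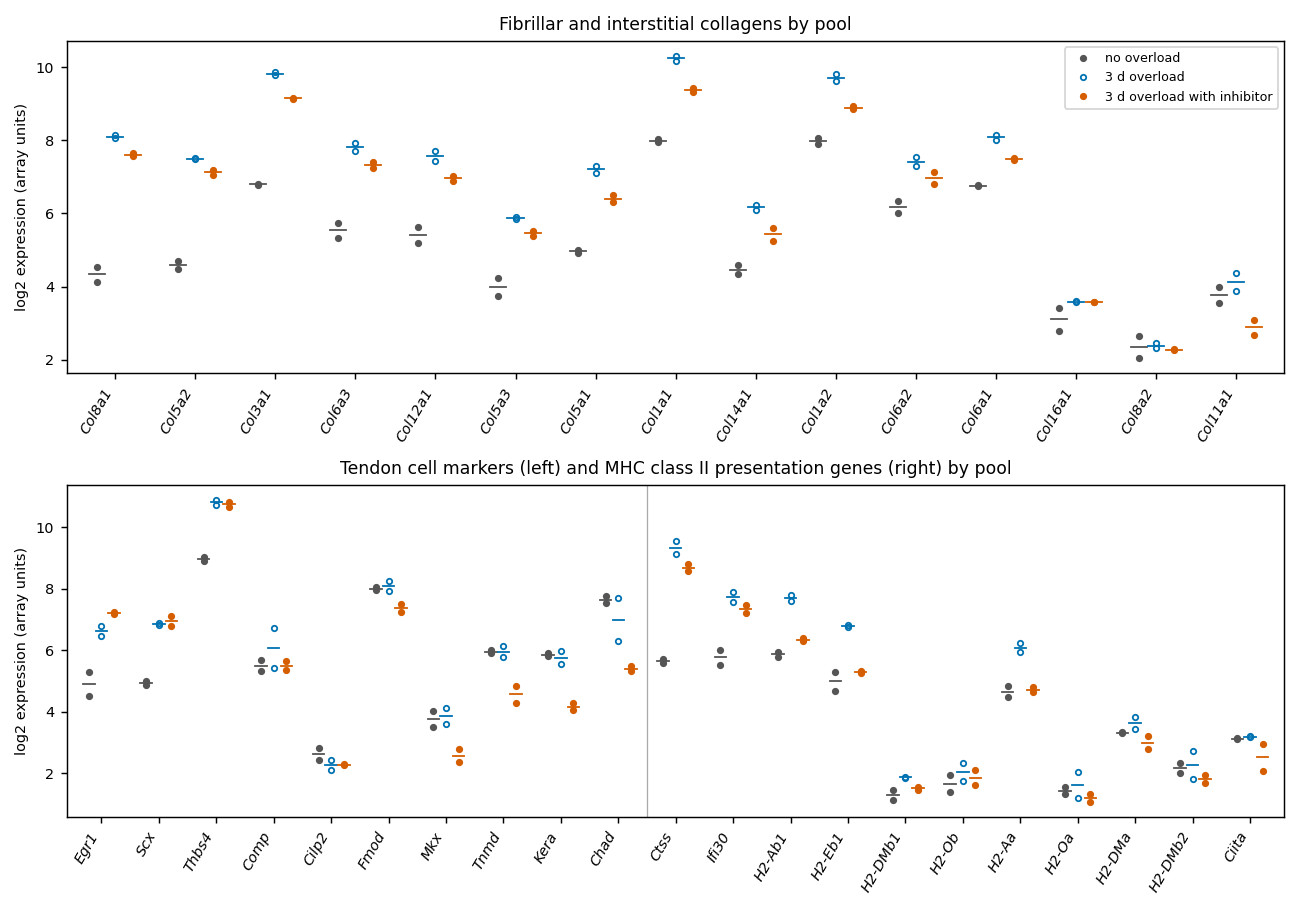
Log2 expression (y axis, array units) of 15 collagens (top) and of 10 tendon markers and 11 MHC class II presentation genes (bottom) in each pool, with bars at the means of 2 pools. Collagens with inhibitor lie between no overload and overload alone for Col3a1 and Col1a1; Chad, Kera, Tnmd and H2-Ab1 with inhibitor lie below both pools of overload alone.

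Of the 17 lists of cell type markers, that of macrophages held the largest share of changed genes. Of 26 markers of macrophages and monocytes, 21 rose and none fell (median 2.24), and 23 rose in overload alone (median 2.83). Their mean level was 6.11 and 5.91 with inhibitor, 3.74 and 3.91 without overload, and 6.68 and 6.22 with overload alone. Besides Cd68, the integrin subunit Itgam rose by 3.25 ± 0.18, the Fc receptor Fcgr1 by 3.20 ± 0.19 and Ms4a7 by 3.87 ± 0.44. The mannose receptor Mrc1 rose by 2.45 ± 0.24 and the hyaluronan receptor Lyve1 by 1.30 ± 0.13. Against overload alone 22 of 26 were lower, 17 with both pools below and 2 with both above, and the median difference was -0.48, or -0.26 without pool 1 of 3 d overload and -0.75 without its pool 2. Of these, 9 had an unadjusted p under 0.05, and none passed. Over all genes 45.6% were lower, 17.7% had both pools below, 22.3% both above and 9.07% an unadjusted p under 0.05.

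Ccr2, the receptor through which monocytes follow Ccl2, had the widest gap. It stood at 4.90 and 5.20 with inhibitor, 2.76 and 2.94 without overload, and 6.51 and 6.58 with overload alone (2.20 ± 0.22, adjusted p = 0.000739; direct difference -1.49, adjusted p = 0.125). Cx3cr1, a receptor of monocytes and resident macrophages, stood at 3.87 and 3.80, 2.62 and 3.28, and 4.70 and 5.03 and did not pass with inhibitor (0.89, adjusted p = 0.0567) but passed in overload alone (1.92). Arg1, an arginase of repair macrophages, stood at 2.45 and 2.76, 2.45 and 2.07, and 4.44 and 3.44, and likewise passed in overload alone (1.68) and not with inhibitor (0.34). None of the direct differences of these genes passed.

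Some ligands and most receptors of inflammation rose. Of 31 cytokines and chemokines, 13 rose and none fell (median 0.70; 6 without inhibitor pool 1 and 8 without no-overload pool 1). The monocyte chemokines Ccl7, Ccl6 and Ccl9 rose by 3.67 ± 0.27, 3.33 ± 0.25 and 2.80 ± 0.25. Cxcl13, a chemokine that draws B cells, was higher than in both other groups, at 5.84 and 5.29 with inhibitor, 4.04 and 4.45 without overload, and 4.45 and 3.98 with overload alone (1.32 ± 0.29, adjusted p = 0.0183, but up to 0.123 without inhibitor pool 1 or no-overload pool 1; direct difference 1.35, adjusted p = 0.248). Of 21 receptors, 13 rose (median 1.06), led by Tnfrsf12a, the receptor of the cytokine TWEAK (2.92 ± 0.25), and Il4ra (2.45 ± 0.20). Of 14 complement genes, 8 rose (median 1.16; 4 or 5 without any 1 of the 4 pools compared), with the anaphylatoxin receptor C3ar1 at 3.23 ± 0.24 and C1qb at 2.72 ± 0.31. Of 22 genes matched for the cytokine list, 5 held the NF-kB motif, GGGA and TTCC with 2 bases between them (22.7% against 1.2% of all windows).

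Genes that present antigen on MHC class II are described for their levels beside overload alone. Of 11 measured, 2 rose with inhibitor (18.2%, against 7.71% of all genes called higher; median 0.21, and -0.07 without no-overload pool 1 and -0.01 without inhibitor pool 2), and 6 rose in overload alone (median 0.58). The class II chain H2-Ab1 stood at 6.39 and 6.29 with inhibitor, 5.93 and 5.79 without overload, and 7.80 and 7.59 with overload alone. It did not pass with inhibitor (0.48, adjusted p = 0.165), passed in overload alone (1.84), and differed directly by -1.36 (adjusted p = 0.118). H2-Aa stood at 4.64 and 4.79, 4.47 and 4.84, and 6.23 and 5.92, and H2-Eb1 at 5.32 and 5.24, 5.30 and 4.67, and 6.74 and 6.82. With inhibitor, H2-Aa and H2-Eb1 differed from no overload by 0.06 and 0.30 and from overload alone by -1.36 and -1.50.

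The class II genes that rose were Ctss (3.05 ± 0.33), a cathepsin that trims the invariant chain, and Ifi30 (1.57 ± 0.21), a lysosomal reductase. Both are also abundant in macrophages in general. All 11 were lower with inhibitor than in overload alone, 8 with both pools below, 5 at an unadjusted p under 0.05, and none passed (smallest adjusted p = 0.118). Over all genes the shares were 45.6% lower, 17.7% with both pools below and 9.07% at that p. With an intensity trend in the moderation, Ccr2, H2-Ab1 and H2-Eb1 were among the 15 genes that passed. Dendritic and B cells also carry class II. In limma 0 of 7 dendritic cell markers passed, 1 had an unadjusted p under 0.05, and 1 passed without no-overload pool 2. Of 8 B and plasma cell markers 0 passed in any setting in which lists were counted, and 1 had an unadjusted p under 0.05. Over all genes 14.2% passed and 26.4% had an unadjusted p under 0.05, so 0 in lists this short says little about these cells. The part of dendritic and B cells in the class II values was not tested.

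Phagocyte genes rose. Of 20 lysosome and phagocyte oxidase genes, 14 rose (median 1.12; 9 without inhibitor pool 1), among them Gpnmb (3.22 ± 0.34), lysozyme (Lyz2, 2.36 ± 0.21) and the oxidase subunit Ncf4 (1.96 ± 0.15). Of 15 prostaglandin and leukotriene genes, 5 rose and 1 fell (2 rose without inhibitor pool 1 or no-overload pool 1, and 0 fell without either inhibitor pool or no-overload pool 2 and 2 without either pool of 3 d overload alone), with Alox5ap, which serves leukotriene synthesis, at 2.20 ± 0.22. Among 20 interferon-stimulated genes, 3 rose and 1 fell (median 0.08, and 0.19 and 0.15 without inhibitor pool 1 and no-overload pool 1; 0 rose without inhibitor pool 2 and 1 without inhibitor pool 1 or no-overload pool 1, and 2 fell without no-overload pool 2). Over all genes 14.2% were called in either direction, so these counts in a short list say little about interferon-stimulated genes as a group. Of 14 genes matched for the interferon list, 8 held the interferon-stimulated response element (57.1% against 3.0% of all windows). The element is GAAA and GAAA with 2 bases between them.

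Markers of other cell types were read in the same way. Of 14 neutrophil markers, Lcn2 (3.20 ± 0.31), Csf3r (1.56 ± 0.13) and Stfa2l1 rose, with mean levels of 3.63 and 3.41 against 2.14 and 1.99. Stfa2l1 was called at 2.17 ± 0.45 (adjusted p = 0.0145) and its adjusted p reached up to 0.0962 where inhibitor pool 1 or a pool without overload was omitted. Without either pool of 3 d overload alone, and so without that group's own spread in the fit, 10 neutrophil markers rose. In limma 0 of 8 granulocyte precursor and 0 of 13 T and natural killer cell markers passed, also in every other setting counted. An unadjusted p under 0.05 was reached by 0 and 1 of them. Of 7 mast cell and 9 adipocyte markers 0 passed, with 1 of each at an unadjusted p under 0.05. In other settings in which lists were counted, at most 1 of each was called lower. With 14.2% of all genes called and 26.4% at an unadjusted p under 0.05, counts of 0 in such short lists say little about these cells. Elane, an enzyme of granulocyte precursors, was at 1.21 and 1.33 with inhibitor and 1.33 and 1.15 without overload, but at 5.21 in pool 1 of 3 d overload alone, against 1.37 in its partner. Of 6 platelet genes, Pf4, which macrophages also express, rose by 1.58 ± 0.17, while Ppbp (0.84, adjusted p = 0.368) and Gp9 (0.57, adjusted p = 0.404) did not pass. Of 16 endothelial genes, 2 rose (not both whichever of the 10 arrays was left out), of which Rgcc, a regulator of the cell cycle, rose by 2.57 ± 0.24. The shares called were 12.5% here, 15.4% for pericyte and smooth muscle genes and 12.5% for Schwann cell genes, near the 14.2% of all genes. Of 13 pericyte and smooth muscle genes, 1 rose and 1 fell (0 of each without either inhibitor pool, among others), and 1 of 8 Schwann cell genes fell (0 without any 1 of the 4 pools compared). Of 5 red cell precursor genes 1 fell, the transferrin receptor Tfrc (-1.08), which other cells also express (0 without inhibitor pool 1 or either no-overload pool).

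Energy metabolism fell. Of 29 oxidative phosphorylation subunits, 24 fell and none rose (median -0.79; 7 without inhibitor pool 1 and 11 or 12 without a no-overload pool), and 22 fell in overload alone (median -0.76). The muscle form of a cytochrome oxidase subunit, Cox7a1, stood at 8.10 and 8.30 against 9.48 and 9.63 (-1.36 ± 0.17, adjusted p = 0.00191) and at 8.35 and 8.12 with overload alone. Cox8b fell by 1.03 ± 0.17, the complex I subunit Ndufs1 by 1.02 ± 0.15 and Cox5a by 0.95 ± 0.15. The median direct difference was 0.01, between -0.08 and 0.07 when single arrays were left out, with 14 members lower and 15 higher, and none had an unadjusted p under 0.05. Of 17 genes of the tricarboxylic acid cycle, 16 fell (median -0.73; 6 without inhibitor pool 1 and 9 without either no-overload pool), the dehydrogenases Idh2 by 1.15 ± 0.15 and Mdh1 by 0.93 ± 0.16 among them, and the median direct difference was 0.04, between -0.02 and 0.13 when single arrays were left out.

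Fatty acid oxidation genes fell, and their levels lay above those of overload alone. Of 25 genes, 15 fell and none rose (median -0.71; 6 to 9 without any 1 of the 4 pools compared), and 21 fell in overload alone (median -0.96). Lipoprotein lipase (Lpl), which supplies fatty acids, fell by 1.23 ± 0.15, the thiolase Acaa2 by 1.17 ± 0.18, and the dehydrogenases Acadvl and Hadh by 1.10 ± 0.14 and 0.94 ± 0.13. The widest gap was in Plin5, which coats lipid droplets at mitochondria. It stood at 5.16 in both inhibitor pools, 6.24 and 5.42 without overload, and 3.13 and 2.55 with overload alone. It did not pass with inhibitor (-0.67, adjusted p = 0.393), passed in overload alone (-2.99), and differed directly by 2.32 (adjusted p = 0.225).

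Acot2, a mitochondrial thioesterase, stood at 9.36 and 8.76, 9.94 and 9.60, and 7.94 and 7.81 (-0.71, adjusted p = 0.0778, and -1.89; direct difference 1.18, adjusted p = 0.225). For 24 of the 25 genes the value with inhibitor was above that of overload alone, for 19 with both pools above, against 22.3% of all genes. The median direct difference was 0.29, 7 had an unadjusted p under 0.05, and none passed. Of 15 regulators of mitochondria, 5 fell (median -0.48, and -0.83 without inhibitor pool 2; 2 without no-overload pool 1 and 3 without no-overload pool 2 or inhibitor pool 1), with Perm1, a coactivator of muscle mitochondrial genes, at -1.75 ± 0.25, the fusion protein Mfn2 at -0.89 ± 0.15, and Ppargc1a at -0.86 without passing (adjusted p = 0.0924). The ERR element TCAAGGTCA was in 0.4% of all windows. It was in none of those of the genes matched for fatty acid oxidation (23), oxidative phosphorylation (21) and the tricarboxylic acid cycle (16).

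Glycolysis fell with them. Of 24 glycolysis and glycogen genes, 15 fell and 2 rose (median -0.63; 8 fell without inhibitor pool 1 and 9 without no-overload pool 2, and 1 rose without inhibitor pool 1 or no-overload pool 1), and 16 fell and 2 rose in overload alone (median -0.70). Besides Gpd1, the regulator Pfkfb3 fell by 1.97 ± 0.26, the phosphorylase kinase subunit Phkg1 by 1.88 ± 0.15, the lactate dehydrogenase Ldhb by 1.79 ± 0.29 and muscle phosphofructokinase (Pfkm) by 1.07 ± 0.15. The glucose transporter Slc2a1, of growing and immune cells, rose by 1.47 ± 0.16, from 6.56 and 6.74 to 8.13 and 8.12. Of 11 creatine and nucleotide buffering genes, 2 fell and 1 rose (1 fell without inhibitor pool 1 or either no-overload pool, and 0 rose without inhibitor pool 1 and 2 without pool 2), with mitochondrial creatine kinase (Ckmt2) at -1.45 ± 0.20.

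Synthesis pathways rose in part. Of 10 polyamine genes, 3 rose and 2 fell (1 fell without any array but inhibitor pool 2). Spermidine synthase (Srm) rose by 1.46 ± 0.20 and Azin1 by 1.39 ± 0.16. Of the enzymes of polyamine breakdown, Sat1 rose by 1.20 ± 0.16 and Smox fell, as above. Of 23 serine, asparagine and ATF4 target genes, 6 rose and 3 fell (3 rose without no-overload pool 1). Psat1, an enzyme of serine synthesis, stood at 5.10 and 5.07 against 1.9996 and 1.83 (3.17 ± 0.22, adjusted p = 0.000174), the amino acid transporter Slc38a2 rose by 1.11 ± 0.12, and Chac1, which degrades glutathione, fell by 2.21 ± 0.30. Of 26 ribosome biogenesis factors, 7 rose and none fell (median 0.38; 3 or 4 without any 1 of the 4 pools compared), Nip7 by 0.90 ± 0.14. Of 24 ribosomal proteins, 8 rose and 1 fell (median 0.32). But fewer rose without any 1 of the 4 pools compared, and 4 rose with the common median over all 22180 genes. The fall was that of Rpl3l, the muscle form of Rpl3, by 1.21 ± 0.17.

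Genes of protein folding and metal and oxidant defence rose in part. Of 18 cytosolic heat shock proteins, 9 rose and none fell (median 0.61; 5 without inhibitor pool 1), with the inducible Hsp70 genes Hspa1b and Hspa1a at 2.84 ± 0.41 and 1.77 ± 0.22, near-identical copies whose probes may share signal. In a list of 22 unfolded protein response and secretory genes, 9 rose and 1 fell (median 0.54; 5 rose without either inhibitor pool or no-overload pool 2), against 15 and 1 in overload alone. They included Sdf2l1 (1.73 ± 0.31), Creld2 (1.19 ± 0.16) and the transcription factor Xbp1 (0.93 ± 0.12), while Herpud1, of protein export from the endoplasmic reticulum, fell by 0.75 ± 0.12. Of 17 metallothionein and antioxidant genes, 9 rose and 3 fell (median 0.47; 5 rose without inhibitor pool 1 or no-overload pool 1). The zinc-binding Mt2 stood at 10.99 and 10.86 against 6.98 and 7.32 (3.78 ± 0.19, adjusted p = 6.01e-05), Mt1 rose by 2.40 ± 0.17 and haem oxygenase (Hmox1) by 2.48 ± 0.33. Mitochondrial superoxide dismutase (Sod2) fell by 0.87 ± 0.14 and the quinone reductase Nqo1 by 1.25 ± 0.17.

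Genes of protein breakdown showed no common direction. Of 16 atrophy ligases and FoxO genes, 2 rose and 4 fell (1 rose and 1 or 2 fell without any 1 of the 4 pools compared). Atrogin-1 (Fbxo32), a ubiquitin ligase of wasting muscle, stood at 9.51 and 9.14 with inhibitor, 9.99 and 10.04 without overload, and 8.34 and 8.63 with overload alone (-0.69, adjusted p = 0.034, but up to 0.171 without inhibitor pool 2, either no-overload pool or either 10 d pool with inhibitor; -1.53 with overload alone; direct difference 0.84, adjusted p = 0.248). Its inhibitor pools lay between the other groups. Trim63, the partner ligase, was at 0.11. Eif4ebp1, a repressor of translation, rose by 1.29 ± 0.16. Of 16 autophagy genes, 1 rose and 4 fell (2 fell without inhibitor pool 1), with the kinase Ulk1 at -1.06 ± 0.16 and Gabarapl1 at 1.05 ± 0.14. Of 27 proteasome subunits, 5 rose and none fell (median 0.24), with Psmd11 at 0.94 ± 0.14. The share called was 18.5%, against 14.2% of all genes. Fewer subunits rose without any 1 of the 4 pools compared, and 2 rose with the common median over all 22180 genes.

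Clock genes changed in both directions. Of 16 circadian genes, 3 rose and 7 fell (median -0.42; 4 fell without inhibitor pool 1), and 1 rose and 8 fell in overload alone. Dbp, an output factor of the clock, stood at 6.51 and 6.94 against 9.06 and 9.22 (-2.42 ± 0.24, adjusted p = 0.000685), and Per3, a repressor, fell by 1.65 ± 0.25. The activator Arntl rose by 1.67 ± 0.24, from 6.21 and 6.31 to 8.04 and 7.81, and Nfil3, which opposes Dbp at the same sites, by 1.30 ± 0.21.

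**Figure D5:**
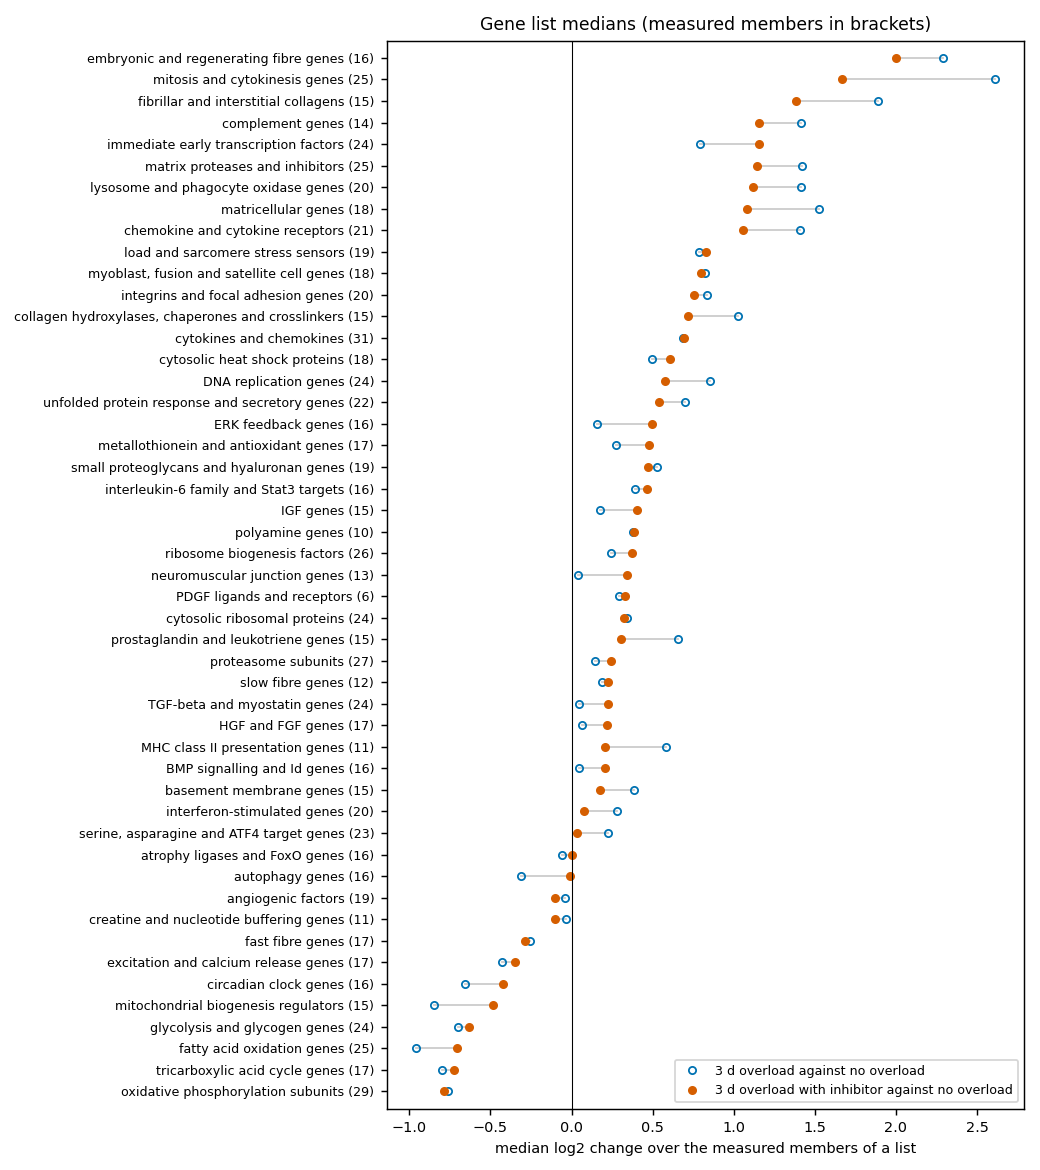
Median log2 change (x axis) of each of 49 gene lists of pathways and functions against no overload, with 3 d overload with inhibitor as filled and 3 d overload as open points and the number of measured members in brackets. Both comparisons use the same no-overload pools; mitosis genes (1.67 and 2.61) and collagens (1.38 and 1.89) have lower medians with inhibitor, and oxidative phosphorylation subunits (-0.79 and -0.76) nearly equal ones.

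Among all genes, those with the smallest p in the direct comparison came from the groups above and from a few singles. After Aspm came Ctxn3, a small membrane protein, at 7.31 and 7.32 with inhibitor, 7.13 and 6.97 without overload, and 5.83 and 5.45 with overload alone (1.67 ± 0.18, adjusted p = 0.0907). Map3k7cl stood at 7.02 and 6.94, 8.68 and 8.49, and 8.13 and 8.37 (-1.27, adjusted p = 0.100). Ctxn3 with inhibitor was thus near its no-overload level, while Map3k7cl was below both other groups. Abhd6, a lipase of monoacylglycerol, stood at 6.43 and 6.39, 5.61 and 5.68, and 5.43 and 5.45 (0.97), above both. The acute-phase gene Saa3 stood at 4.01 and 3.84, 2.43 and 1.79, and 2.12 and 1.96 and rose against no overload (1.82, adjusted p = 0.00271), with a direct difference of 1.89. The chromatin protein Hmgb2 (-1.03), the phosphatase Cdkn3 (-1.27) and the formin Diaph3 (-1.19), all of dividing cells, were lower with inhibitor. So were Palb2, a partner of Brca2 (-1.04, and 1.82 and 1.94 with inhibitor against 2.91 and 2.92), and the nucleotide transporter Slc17a9 (-1.14, and 2.09 and 2.31 against 3.23 and 3.44). All of these have adjusted p of 0.0907 or 0.100 and none passed.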

How the data were processed

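RNA of mouse plantaris was extracted with Qiazol and read on Affymetrix Mouse Gene 2.1 ST arrays, per the labels' protocols. The labels name 2 ways of preparing the cDNA, the GeneChip WT PLUS kit and the NuGEN Ovation and Encore kits, and do not say which applies. The authors deposited log2 values, and the submitters' processing notes name RMA, oligo and limma without saying which step used which. RMA subtracts background, sets all arrays to 1 distribution and summarises probes, so changes of dim genes are understated and a shift of total RNA per muscle is removed.

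The table held 41345 probe sets with values from -0.45 to 12.71, of which 23521 had 1 symbol in the platform annotation, 1814 several and 16010 were not listed. Each of 22180 genes was taken at its brightest probe set, which mattered for 1082. All 10 arrays in 5 groups were fitted together in limma 3.58.1 (R 4.3.3; lmFit, eBayes), with 5 residual and 3.58 prior degrees of freedom, so errors pool the spread of all groups. P-values were adjusted over all genes by Benjamini-Hochberg, with a threshold of 0.05. The scripts were tested on simulated data. Array number limits the precision.

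Named genes were the 12 largest rises and 12 largest falls among called genes whose pools did not overlap, the 8 largest each way in overload alone, the 10 smallest p of the direct comparison, and members of the gene lists, led by their largest called changes. Unnamed clones and receptor or small RNA families were left out. The comparison and the lists were chosen with earlier results of these data known. Alternatives covered the samples fitted, scaling, dim genes, probe set choice, the variance prior and each array left out. Promoters came from RefSeq (GRCm38.p6), matched by symbol.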

Additional observations from a re-analysis of the deposited data

How the results depend on the processing

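The inhibitor group against no overload gave 3154 calls, 1933 with only the 4 arrays compared, 4004 with an intensity trend, 3814 without genes under a mean log2 value of 3, 3055 with the mean of a gene's probe sets, 2458 over all probe sets, and 1343 to 3178 with single arrays left out. Arrays at a common median over all probe sets gave 3141, and quantile normalization 3171 (1585 higher, 1586 lower). A common median over the 22180 genes, chosen after seeing the data, gave 3306, of which 39.8% were higher against 54.2%. Overload without inhibitor gave 3881 calls, 2863 with only its 4 arrays, 4862 with the common median over named genes, and 2146 (without pool 1 of 3 d overload) to 3850 with single arrays left out. The direct comparison gave 0, 15 with the intensity trend, 4 without dim genes (Abhd6, Ctxn3, Hmgb2, Map3k7cl), and 0 to 7 with single arrays left out. The 7, found without pool 2 of 3 d overload, were led by granulocyte and bone genes (Camp, Elane, Mpo, Ibsp). The cause was not tested. No value changed its direction past a threshold. No paired analysis was possible because the labels give the pools no shared replicate numbers. With 2 pools a group, changes near the threshold could not be settled, and genes with values near the array's lower end had little room to fall.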
